A study of Mus musculus with 6 samples.

Results

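CTCF ChIP-seq regions that lost the most peak score when CTCF could not carry O-GlcNAc at one threonine were examined in mouse embryonic stem cells (ESCs). A region was a row of the deposited table of joined peaks. Members were chosen by 3 steps: the region lay on chromosomes 1 to 19 or X, it overlapped a peak in each of the 4 CTCF ChIP libraries, and its mean MUT_CTCF score was at most 0.25 of its mean WT_CTCF score. The score is the value the authors deposited with each peak, and the highest score was taken where a region held several peaks of a library. Of 57662 regions, 57644 lay on these chromosomes, 30312 were shared by the 4 libraries and 2155 were members, which is 7.11% of the shared regions.

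In both lines the endogenous CTCF carried an EGFP and degron tag and was removed with auxin, and a vector supplied either wild-type CTCF (WT_CTCF) or CTCF with the threonine changed to alanine (MUT_CTCF). Each group had 2 ChIP libraries, described as biological replicates, and Drosophila chromatin was added as a spike-in. The lines were picked clones with introduced CTCF near the endogenous level, so genotype and clone cannot be told apart here. The libraries held 49987 and 54001 peaks in WT_CTCF and 33939 and 32712 peaks in MUT_CTCF.

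CTCF binds an asymmetric DNA motif through its zinc fingers and halts the cohesin complex as it extrudes chromatin loops. Its sites mark many loop anchors and domain borders, and a portion of them lies at gene promoters. O-GlcNAc is a single sugar placed on serine or threonine by the enzyme OGT and removed by OGA. In rodents, B2 short interspersed repeats are known to carry CTCF motifs and to have spread them through the genome.

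The sites within named members are shown because they fall into different sequence types. Each line gives the 13 bases of the best match to the CTCF core motif in capitals, with 2 bases before it and 15 after it, read 5′ to 3′ on the motif's strand in mm9.
Cacna1a (chr8:87163417-87163446, plus strand): agCCGCCAGGGGGCGcgcacgatcccgcgc
Gclm (chr3:121948393-121948422, plus strand): ggCCGGCAGGGGGCGcacgtccgcgcgctg
Dtd1 (chr2:144425698-144425727, plus strand): tgCCGGTAGAGGGCGccggtcgaggagcca
Mapt (chr11:104092637-104092666, minus strand): gaCCGCTAGGGGGCGcacgcgagcgcccct
Psmb3 (chr11:97571617-97571646, plus strand): ccCCAGAAGAGGGCGtcagatctcattaca
Pou5f1 (chr17:35634596-35634625, plus strand): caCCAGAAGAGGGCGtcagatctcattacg
Nanog (chr6:122663703-122663732, plus strand): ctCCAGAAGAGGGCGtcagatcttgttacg
Zfp42 (chr8:44343175-44343204, minus strand): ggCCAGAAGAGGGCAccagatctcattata
Lsm11 (chr11:45758527-45758556, plus strand): ggCCACCAGGGGGCAgcatagattcgctct
Olfml2b (chr1:172562699-172562728, minus strand): agCCAGCAGATGGCActcactcaactttgg

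The first 4 sites lay in CpG-rich sequence, with 6, 6, 4 and 5 CpG dinucleotides in the window, and each differed from the motif at position 3, counted from its 5′ end. The next 4 sites differed from the motif at position 5 and ran into nearly the same 15 letters, here called the shared tail. The majority letters of this tail were taken from 5 member sites, these 4 and another near Psmb3, so close matches here follow from that choice. The printed site near Psmb3 matched them without mismatch, and those near Pou5f1, Zfp42 and Nanog differed at 1, 2 and 3 letters. Lsm11 and Olfml2b, among the members with the highest WT_CTCF scores, matched the motif in full and had another sequence after it.

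The lowest ratio of all shared regions was found in a region touching a coding exon of Cacna1a, which encodes the pore subunit of a voltage-gated calcium channel (chr8:87163070-87163699). Its peak scores were 3457 and 4133 in WT_CTCF and 158 and 184 in MUT_CTCF, a ratio of 0.0451. This region was also among the 10 members with the highest WT_CTCF score, and 71.6% of its bases were G or C. The promoter of Dctpp1, a dCTP pyrophosphatase, scored 1411 and 1483 in WT_CTCF and 90 and 76 in MUT_CTCF (chr7:134404167-134404875). The promoter of Gclm, the modifier subunit of the enzyme that starts glutathione synthesis, scored 1515 and 1438 against 116 and 92 (chr3:121948218-121948627). In both promoters the MUT_CTCF replicates lay close together and far below either WT_CTCF replicate.

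The promoter of Mapt, which encodes the microtubule protein tau, scored 1538 and 1972 in WT_CTCF and 132 and 134 in MUT_CTCF (chr11:104092348-104092873). At Mrps16, a mitochondrial ribosomal protein, the scores were 1203 and 1505 against 117 and 109 (chr14:21212473-21213169). At Dtd1, a D-aminoacyl-tRNA deacylase, they were 762 and 665 against 48 and 58 (chr2:144425419-144425917). These 3 regions touched both a promoter and an exon. A region over the start of Gm10644 and within the promoter of Asf1b, a histone chaperone, scored 771 and 837 against 82 and 35 (chr8:86478860-86479428). Here the MUT_CTCF replicates differed by more than 2-fold, although both stayed far below WT_CTCF.

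Lmbrd1, a lysosomal protein needed for vitamin B12 export, scored 606 and 855 in WT_CTCF and 41 and 61 in MUT_CTCF (chr1:24685109-24685580). Nlrp3, the inflammasome sensor, scored 546 and 723 against 34 and 58 in a region upstream of its start (chr11:59351688-59352364). Psmb3, a proteasome subunit, scored 362 and 637 against 42 and 41 in a region that touched its promoter and an intron (chr11:97571279-97572297). Thus 9 of the 10 members with the lowest ratio touched a promoter, against 23.6% of all members and 15.4% of all shared regions. The exception was Cacna1a, whose region centre lay 495 bp from an annotated start. G+C ranged from 43.6% at Psmb3 to 74.3% at Mapt.

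**Figure D1:**
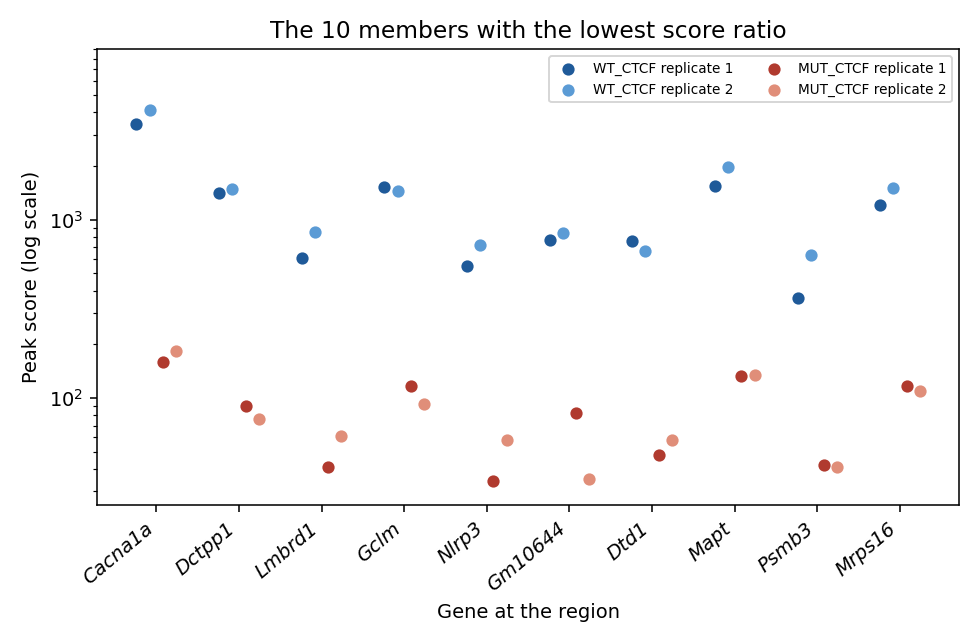
Peak score (log scale) in each of the 4 libraries for the 10 members with the lowest score ratio, ordered from Cacna1a (0.0451) to Mrps16 (0.0835); each point is 1 library. Both WT_CTCF points lie above both MUT_CTCF points at each gene, and the replicates of MUT_CTCF are most apart at Gm10644.

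The rule used the scores of all 4 libraries, so these values describe the choice and were not tested. Over the 2155 members the median WT_CTCF mean score was 472.5 and the median MUT_CTCF mean score was 95. Over all shared regions the medians were 595 and 257.5. The median ratio was 0.214 in members and 0.442 in all shared regions, and the range over all shared regions was 0.0451 to 2.45. Both MUT_CTCF scores lay below both WT_CTCF scores in 2155 of 2155 members, where the same held for 96.2% of all shared regions. A lower deposited score in MUT_CTCF was thus general, and members were the lower end of that distribution rather than a separate group. From spike-in normalized ChIP-seq the paper reports the opposite direction, a global increase in chromatin binding of the mutant CTCF. Its immunoblots likewise showed more chromatin-bound CTCF. It also reports higher chromatin accessibility at the enhanced peaks, and the same results in additional clones of both lines. The definition of the score is not known here, and the difference in direction was not tested.

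**Figure D2:**
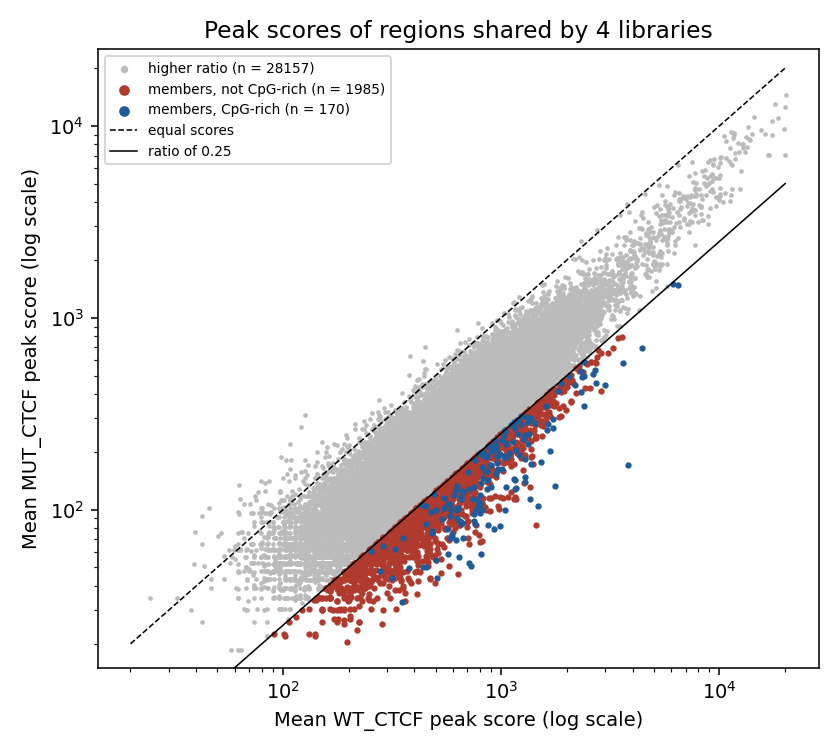
Mean MUT_CTCF peak score against mean WT_CTCF peak score for the 30312 shared regions, both on log scales; grey points are the 28157 regions with a higher ratio, red points members that were not CpG-rich (n = 1985) and blue points CpG-rich members (n = 170). The cloud continues across the solid line of the 0.25 limit without a gap, and the blue point farthest below the line is Cacna1a.

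At the limit, 11 members had a ratio of exactly 0.25. A region in an intron of Atg7, an autophagy enzyme, scored 125 and 259 in WT_CTCF and 57 and 39 in MUT_CTCF (chr6:114793066-114793453). A region in an intron of Gm20388 scored 455 and 273 against 86 and 96, and an intergenic region on the X chromosome scored 287 and 245 against 57 and 76. Just outside, the region nearest to Spocd1 scored 1313 and 1333 against 385 and 277, that nearest to Gm5082 scored 1029 and 901 against 224 and 259, and that nearest to C1qb, a complement component, scored 471 and 472 against 107 and 129. The regions on either side of the limit differed in ratio by less than their replicates differed from each other.

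Many members were weak peaks in MUT_CTCF, and the rule itself favours a low MUT_CTCF score. The MUT_CTCF mean was below 100 in 1160 of the 2155 members. Over all shared regions the lower quartile of the MUT_CTCF mean was 134.5. WT_CTCF replicates differed by more than 2-fold in 43 members (2.00%) against MUT_CTCF replicates in 145 (6.73%). Over all shared regions these shares were 1.30% and 3.29%. Of the 4 ratios that can be formed from 1 WT_CTCF and 1 MUT_CTCF library, all were at or below 0.25 in 899 members, 3 were in 573 and 2 were in 683. In the members with 2 or 3, at least 1 choice of replicates gave a ratio above the limit.

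How far the choice carried over between replicates was described within the shared regions, by choosing on the scores of 1 library of each group. All 4 libraries had already been used to require a peak, so this is a description and not an independent check. Choosing on the first replicates gave 2306 regions, of which 50.4% were also at or below 0.25 in the second replicates, where 11.5% of all shared regions were. Choosing on the second replicates gave 3493 regions, of which 33.3% were also at or below 0.25 in the first replicates, against 7.61% of all shared regions. The crossed choices gave 46.9% against 10.3% and 38.9% against 8.51%. In the libraries whose scores were not used for a choice, the median ratio of the chosen regions was 0.249, 0.260, 0.282 or 0.297, which was above the limit in 3 of the 4 choices.

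The WT_CTCF score is part of the rule, so its distribution is given as a description. With the shared regions split into 10 bands of about equal size by WT_CTCF mean score, members made up 4.03% of the lowest band, 11.4% of the third and 3.79% of the highest. The authors' mean, the spike-in scaled read count averaged over the 4 libraries, had a median of 148.5 in members and 206.5 in all shared regions. By bands of the authors' mean, which the rule did not use, members made up 11.6% and 12.0% of the lowest 2 bands and 5.37% of the highest. The WT_CTCF mean score was above 1000 in 322 members (14.9%), against 25.1% of all shared regions.

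The strongest of these lay at Lsm11, a component of the particle that processes histone mRNA ends, with scores of 6453 and 6423 in WT_CTCF and 1513 and 1456 in MUT_CTCF (chr11:45758208-45758884). A region over the shared start of Alg5, an enzyme of protein glycosylation, and Exosc8, an RNA exosome subunit, scored 6087 and 6214 against 1494 and 1515 (chr3:54538992-54539785). It also had the highest authors' mean of all members, 1840.25. In these 2 regions the replicates of a group lay close together, and the ratios, 0.231 and 0.245, lay close to the limit. Ick, a kinase of primary cilia, scored 3243 and 3992 against 612 and 552 (chr9:77960626-77961307), and Adrm1, a ubiquitin receptor of the proteasome, scored 2766 and 3194 against 460 and 431 (chr2:179905732-179906363).

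Away from promoters, high WT_CTCF scores were found 11969 bp from the start of Olfml2b, with 3194 and 3672 against 765 and 807 (chr1:172562285-172563103), and 16875 bp from Prrc2b, with 3511 and 3649 against 750 and 842 (chr2:31989330-31990123). A region in an exon of Armc7 scored 2925 and 3262 against 679 and 624 (chr11:115344789-115345699). These 3 regions had 7, 4 and 15 CpG dinucleotides over their whole width, where Lsm11 had 48 and Alg5 had 79. The strongest member away from promoters was CpG-rich, an intergenic region 116415 bp from the start of Smad2, a mediator of TGF-beta signals, with scores of 4177 and 4611 against 627 and 763 and with 53 CpG dinucleotides. The Cacna1a region, outside the promoters as defined here but centred 495 bp from an annotated start, had 96. Strong members outside promoters, by this definition, were thus of both kinds. A region in an exon of Gm10801 had the third highest authors' mean, 1544.25, with WT_CTCF scores of only 573 and 527 and MUT_CTCF scores of 147 and 91 (chr2:98502395-98502951). Its G+C was 34.1%, its best motif match had 3 mismatches, and its WT_CTCF and MUT_CTCF summits lay 192.5 bp apart. Azi2, an adaptor of antiviral kinase signalling, had an authors' mean of 1163.25 and scored 2601 and 2854 against 505 and 407.

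Peaks of members were also narrower in MUT_CTCF. The median width was 494 and 526 bp in the WT_CTCF libraries and 272 and 259 bp in the MUT_CTCF libraries. Over all shared regions it was 526 and 554 bp against 401 and 386 bp. Both MUT_CTCF widths lay below both WT_CTCF widths in 2117 members, a share of 98.2% against 84.8% of all shared regions. Width and score come from the same peaks, so this is a second view of the same contrast. The mean summits of the 2 groups lay a median of 11 bp apart in members and 8.5 bp apart in all shared regions. In members the MUT_CTCF replicates lay a median of 11 bp apart and the WT_CTCF replicates 8 bp apart. In all shared regions these medians were 8 and 7 bp. The group distance is between means of 2 summits and the replicate distances between single summits, so they are not directly comparable. The groups' summits lay more than 100 bp apart in 45 members (2.09%, against 0.953% of all shared regions). The MUT_CTCF replicates lay that far apart in 56 members (2.60%, against 0.693% of all shared regions). The WT_CTCF replicates did so in 10 members (0.464%, against 0.525%).

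**Figure D3:**
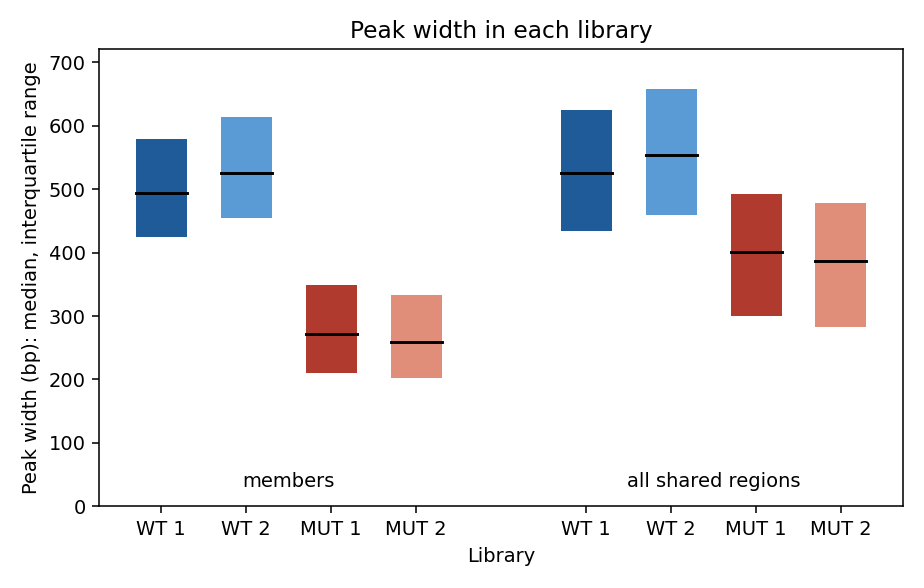
Peak width in bp in each library, for the 2155 members and for all 30312 shared regions; the box spans the lower to the upper quartile and the line is the median. The MUT_CTCF medians lie below the lower quartile of both WT_CTCF libraries in members (272 and 259 bp) and in all shared regions (401 and 386 bp). The boxes of the groups do not overlap in members and do overlap in all shared regions.

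Members lay at promoters more often than shared regions as a whole. A promoter, taken as the 3000 bp before an annotated transcription start, was touched by 509 members (23.6%) and by 15.4% of all shared regions. An exon was touched by 21.9% against 15.8%, while 32.6% against 36.0% lay in an intron without touching an exon and 38.9% against 42.8% were intergenic. The share at promoters was 40.1% for ratios below 0.15, 21.7% from there to the limit, 16.6% for ratios up to 0.35 and 13.7% for ratios from 0.45 to 0.55. It was 14.2% from 0.55 to 0.75 and 16.6% at 0.75 or more, so it did not fall steadily with the ratio. The member promoters belonged to 560 genes, and 63 members touched promoters of 2 or more genes. Seen from the other side, 10.9% of the 4660 shared promoter regions were members, against 6.42% of the 25652 shared regions elsewhere.

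The share of members also varied with G+C content. Below 55% G+C, members made up between 5.96% and 6.87% of shared regions in each band, below the 7.11% of the whole. The share was 10.9% from 55 to 60% G+C (175 of 1602 regions) and 33.8% from 60 to 65% (94 of 278). It was 56.3% from 65 to 70% (40 of 71) and 92.3% at 70% or more (12 of 13). The median ratio of all regions in these bands fell from 0.465 at 55 to 60% to 0.329, 0.245 and 0.160. The CpG ratio, the observed over the expected number of CpG dinucleotides, gave a like pattern, with 6.24% members below 0.2 and 37.9% at 0.8 or more. The part that G+C-dependent recovery or amplification of fragments may have in this was not tested.

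**Figure D4:**
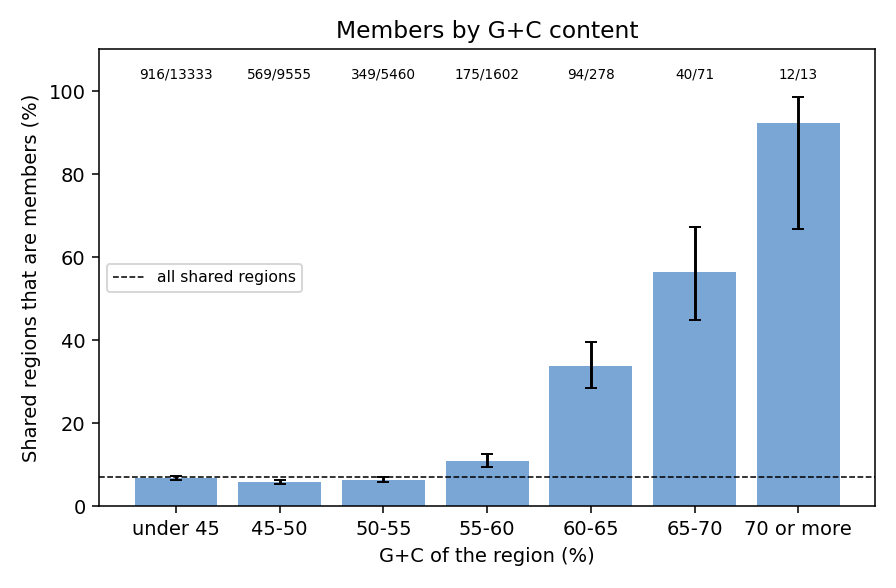
Share of shared regions that were members in bands of G+C percent, with the number of members over the number of shared regions above each bar; error bars are 95% Wilson intervals that cover counting error over regions only, and the dashed line is the 7.11% of all shared regions. The 4 bands from 55% upward rise from 10.9% to 92.3%, and the bands below 55% stay under the line.

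Regions with at least 55% G+C and a CpG ratio of at least 0.65 were taken as CpG-rich, in the manner of a CpG island, a class of mostly unmethylated sequence found at many promoters. There were 413 of them among the shared regions and 170 were members (41.2%), against 6.64% of the other 29899. The share was 41.9% for the 322 at promoters and 38.5% for the 91 elsewhere. Promoters that were not CpG-rich held 8.62% members, and regions that were neither at promoters nor CpG-rich held 6.30%. Within CpG-rich regions the share was 41.6% where a CTCF motif was found and 40.7% where none was found.

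The CpG-rich members were not weak regions. Their median WT_CTCF mean score was 878.25 and their median authors' mean was 433.625, against 454 and 141.5 in the other members. Their median MUT_CTCF mean score was 147, against 91.5 in the other members. Their median ratio was 0.176, against 0.216 in the other members. A ratio of 0.15 or less was found in 57 of these 170 regions and in 223 of all 2155 members. The 243 CpG-rich regions that were not members had a median WT_CTCF score of 796 and a median authors' mean of 412.25. The region centres of CpG-rich members lay a median of 162.5 bp from the nearest annotated start. Even so, CpG-rich regions were a small part of the members, 7.89%, against 1.36% of all shared regions. The median G+C of all members, 46.2%, was close to that of all shared regions, 45.9%.

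The CTCF core motif was searched on both strands, and 1 mismatch over 13 positions was allowed. It was found in 65.9% of members and 70.3% of all shared regions, against 5.82% and 5.79% of equal-width intervals 5000 bp to either side. A match without mismatch was found in 13.7% of members and 20.2% of all shared regions. Among regions with a motif, the match was full in 20.8% of members and in 29.3% of the other regions. The mismatch lay at position 5 in 568 of 1421 member sites and in 34.9% of the others. In CpG-rich regions it lay at position 3 in 47.1% of member sites and 45.9% of the others, so this letter accompanied CpG-rich sequence in members and non-members alike. The letters GGGGCGGGG, a GC box, searched on both strands, were found in 4.55% of members and 2.37% of all shared regions, and in 22.9% of CpG-rich members against 18.9% of CpG-rich non-members. The GC box was 1 of 6 other motifs searched as exact letters on both strands. The ETS letters CCGGAAGT differed in the other direction within CpG-rich regions, with 3.53% of members against 10.3% of non-members, while over all regions they were found in 1.48% of members and 0.996% of shared regions. The cAMP response element TGACGTCA was found in 2.94% of CpG-rich members against 1.65% of non-members and the NRF1 motif in 3.53% against 2.47%. The YY1 motif was found in 0 CpG-rich members and 6 CpG-rich non-members, and the ZNF143 motif in no CpG-rich region. Over all regions the YY1 motif was found in 5 members (0.232%) and 0.0726% of shared regions. The ZNF143 motif was found in 5 members (0.232%) and 0.0528% of shared regions. For the cAMP response element these shares were 0.882% and 0.525%, and for the NRF1 motif 0.371% and 0.139%.

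The shared tail marked a further type of member. It was noticed in the named members near Psmb3, Pou5f1, Nanog and Zfp42 after their values had been seen, and was then counted in all shared regions. With up to 3 mismatches to the 15 majority letters, it followed the motif in 1670 shared regions, of which 251 were members (15.0%). The 5 sites that gave the letters are among the 251. Of regions with a motif and another sequence after it, 5.95% of 19648 were members. The share fell from between 12.9% and 17.4% at 0 to 3 mismatches to 9.27% at 4, and lay between 4.54% and 7.25% at 5 to 15. The letters run like those of a B2 repeat, but repeats were not annotated here.

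**Figure D5:**
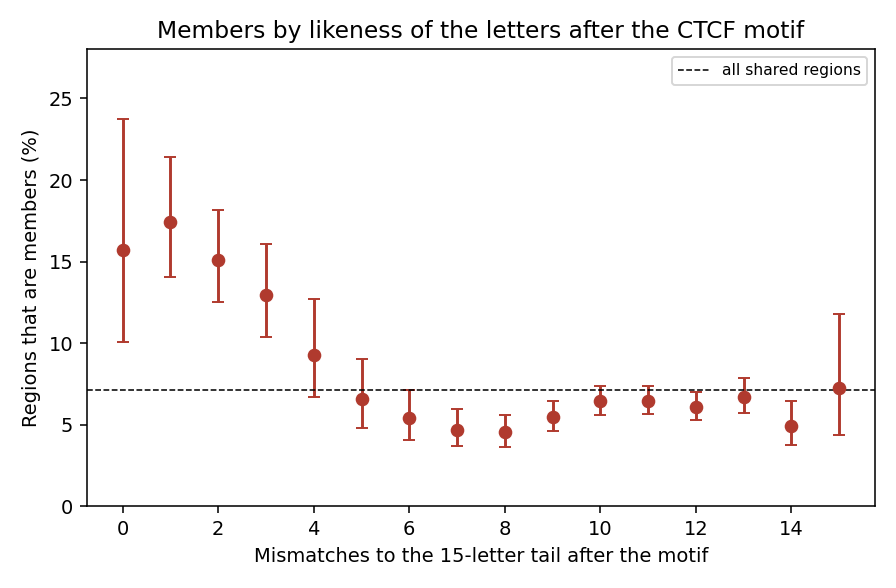
Share of regions with a CTCF motif that were members, by the number of mismatches between the 15 letters after the motif and the shared tail; error bars are 95% Wilson intervals that cover counting error over regions only, and the dashed line is the 7.11% of all shared regions. The points at 0 to 3 mismatches lie at 12.9% to 17.4% and those at 5 or more lie near or below the line.

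Regions with the shared tail had a lower authors' mean than shared regions as a whole, with a median of 148.5 against 206.5. For an authors' mean below 153.75, members made up 21.0% of them and 9.96% of regions with another tail. From there to 272 the shares were 10.9% and 5.24%, and at 272 or more they were 4.41% and 3.64%. The shares thus lay far apart at low levels and close together at high levels, and the part of the lower level in the members' share was not tested. Unlike the CpG-rich class, regions with the shared tail were poor in G+C, with a median of 42.8%, and only 5.63% matched the motif in full. No member belonged to both classes. The classes together held 421 members (19.5%). Of the 30312 shared regions, 28230 lay in neither class, and 6.14% of these were members. Multiply aligned reads had been removed before the files were made, and the part of this step in the scores of repeat-like regions was not tested.

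Members were spread over all chromosomes studied, from 5.76% of shared regions on chromosome 7 to 8.95% on chromosome 3. Of the 1371 shared neighbours within 10000 bp of a member, 8.75% were members, against 7.13% of the neighbours of other shared regions.

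Among the gene lists, 4 of the 21 shared regions that touched or lay nearest to a naive pluripotency gene were members, where 7.11% of all shared regions were, and the median ratio of the 21 was 0.387. Near Pou5f1, which encodes the core pluripotency factor OCT4, a region scored 228 and 203 in WT_CTCF and 39 and 39 in MUT_CTCF (chr17:35634220-35634775). At Nanog, another core factor, a region over an annotated exon scored 203 and 273 against 48 and 30 (chr6:122663482-122663953). The region nearest to Zfp42, the marker also known as REX1, scored 230 and 378 against 50 and 85 from a distance of 49226 bp (chr8:44342904-44343369). These are the sites with the shared tail printed above, and their scores were low in both groups. The region nearest to Prdm14, a repressor of differentiation genes, was stronger, at 1525 and 1488 against 331 and 386 (chr1:13124184-13124917).

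Of the 23 regions of lineage regulators 2 were members. The region nearest to Neurog2, a neurogenic factor, scored 686 and 724 against 109 and 180, and that nearest to Eomes, a regulator of mesendoderm and trophoblast, scored 170 and 151 against 35 and 41. For cohesin and loop extrusion genes 1 of 16 regions was a member, at the promoter of the cohesin acetyltransferase Esco1, with 598 and 409 against 99 and 100. Of 6 regions of the O-GlcNAc and hexosamine genes, 1 was a member, in an intron of Gfpt2, which starts hexosamine synthesis, with 273 and 302 against 48 and 86. Of 15 Hox regions 1 was a member, nearest to Hoxa13, a limb and hindgut patterning gene, with 1163 and 1184 against 270 and 295. None of the 24 regions of imprinted genes was a member, and their median ratio was 0.481. The numbers per list were small, and the genes nearest to a region need not be its targets.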

How the data were processed

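CTCF ChIP-seq was analysed in 4 libraries of mouse ESCs, 2 per group; the 2 input samples were not analysed here. Groups and replicate numbers came from the sample titles. Per the labels and the study's methods, the authors trimmed reads with Trim Galore 0.4.4, aligned them with Bowtie2 2.3.4.1 to mm9, removed multiply aligned and duplicate reads, multiplied Drosophila spike-in factors into the coverage and used MACS2 2.1.1.20160309 on each library. The deposited score of each peak is used as given; its definition is not given in the sources used here. The authors' mean is a deposited signal, the spike-in scaled read count averaged over 4 libraries, with no value per library. The deposited table also holds the authors' DESeq2 1.38.0 comparison in 5 columns (fold change, its error, statistic, p and adjusted p), which were not used. Depth per library is unknown, so no interval for counting error of a score is given.

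Overlap was at least 1 bp. Location came from GENCODE vM1 and sequence from NCBIM37, the same assembly as mm9. Computation used Python 3.11.15, pandas 2.3.3 and scipy 1.17.1; overlap and motif code was tested on simulated data. No test was run, since the rule used all 4 libraries; shares are set beside all shared regions. Named regions were the 10 members with the lowest ratio, the 10 with the highest WT_CTCF score, the 6 with the highest authors' mean, 3 on either side of the limit and members at listed genes. Not each of these is described. The members and lists were chosen with earlier results of these data known; the CpG-rich class and the shared tail were defined after values had been seen. Alternatives covered the score, overlap, limit, scale, replicates, promoter and motif definitions.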

Additional observations from a re-analysis of the deposited data

How the results depend on the processing

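The number of members, 2155, was 690 with 50% reciprocal overlap, 798 at a limit of 0.20 and 4317 at 0.30. It was 700 with a minimum MUT_CTCF mean of 129, 1162 where both ratios within replicate numbers had to pass, and 899 for the lowest WT_CTCF against the highest MUT_CTCF score. With each library divided by its median score only 45 regions passed. The median ratio was then 0.496 in the original 2155 members and 1.03 in all shared regions. The size of the set thus rests on the general difference in score. The replicate block (geometric mean of the ratios within replicate numbers) gave 2209. The replicates share only a number. Leaving out 1 library gave 1882 to 2856 members. The median ratio of the original 2155 members was then 0.20 to 0.22.

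The share at promoters was 19.8% with 1000 bp on either side of a start, 20.6% for protein-coding genes, 21.2% for the summit, 29.2% at a limit of 0.20 and 21.0% at 0.30; the first 3 were 11.3%, 12.6% and 13.6% in all shared regions. The motif share was 13.7% with no mismatch, 92.7% with 2, 60.9% around the summit and 5.82% in control intervals, against 20.2%, 93.6%, 67.4% and 5.79% in all shared regions. The following were chosen after seeing the data. Of CpG-rich regions, 55.8% were members at 60% G+C or more, 49.6% at a CpG ratio of 0.75 or more, 28.1% at a limit of 0.20 and 55.9% at 0.30, and 38.0% to 44.3% without 1 library. Of shared-tail regions, 6.41% were members at 0.20, 29.8% at 0.30, and 13.1% to 20.1% without 1 library, when 2.63%, 14.2% and 6.21% to 9.42% of all shared regions were. Over all 15 results, 44 of the 92 alternatives stayed within the range set around the reported value and 48 did not. This range was a fixed fold limit for the number of members and a Wilson interval over regions for shares. For the medians of G+C and authors' mean it was an interval from the ordered values. For score ratio, width ratio and summit shift it was the standard deviation over pairs of 1 library per group. The tally thus pools unlike criteria. The median G+C of members, 46.2% against 45.9% in all shared regions, lay below instead of above within 100 bp of the summit (47.5% against 48.0%) and at a limit of 0.30 (45.7%). No sample group was large enough for a search for outlying samples. The scores have no known depth behind them, so differences between weak MUT_CTCF peaks cannot be judged against counting error.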
